A study of Mus musculus with 12 samples.

Results

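Transcripts of 37 genes of glucose handling were examined in mouse B cell acute lymphoblastic leukemia (B-ALL) cells treated with LY2090314, a small-molecule inhibitor of the kinase GSK3. The genes were listed by the reaction they serve: glucose entry, upper and lower glycolysis, lactate dehydrogenase, pyruvate dehydrogenase with its kinases, the pentose phosphate pathway and glycogen metabolism. Of the 37 genes, 33 had a mean level of at least 3 and were tested among 11536 genes above that level. Levels are rlog values, which are log2 values of read counts scaled for library size. The rlog transformation draws genes with few reads towards their own mean, so differences of such genes are understated. Both groups were *Ctnnb1* fl/fl pre-B cells from bone marrow, transformed with *BCR-ABL1* and carrying ERT2, the vector without Cre, so that β-catenin was left intact. Both had received 1 µM 4-OHT, a tamoxifen metabolite, for 2 days. The treated group had also received 40 nM LY2090314 for 1 day according to the sample labels, whereas the study's own description gives a shorter exposure. Each group held 3 samples, called control 1, 2 and 3 and treated A, B and C here. Columns A and B carry the same library number. The study describes the samples as biological replicates from separate mice, whereas the sample labels name no animals. Whether A and B are from separate mice cannot be read from the labels, so the p-values measure the spread between these samples, part of which may be technical. Samples with Cre-ERT2 are not analysed here.

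Glycolysis splits glucose into pyruvate, and its pace is set mainly by hexokinase, phosphofructokinase and pyruvate kinase. Pyruvate is either reduced to lactate by lactate dehydrogenase or passed to the mitochondrial citrate cycle by the pyruvate dehydrogenase complex, which is switched off when pyruvate dehydrogenase kinases phosphorylate it. The pentose phosphate pathway branches off at glucose-6-phosphate and supplies NADPH and ribose. GSK3 takes its name from glycogen synthase, the enzyme it phosphorylates and inactivates, and Myc is a transcription factor known to activate many glycolytic genes in dividing lymphoid cells.

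The cells had the transcripts of their labelled type: all 12 B lineage markers examined were above the mean of 3, of which 2 were higher and 8 lower with LY2090314. Of 10 T and NK cell markers 1 was above that level, of 10 erythroid and megakaryocyte markers 1, of 10 myeloid markers 2 and of 8 stromal markers 1. The summed level of the myeloid markers ranged from 6.15 to 6.33 in control and from 7.43 to 7.49 in treated samples, and 5 of these 10 (*Adgre1*, *Mpo*, *Elane*, *S100a8* and *S100a9*) were listed at 0 in every sample. The myeloid markers above a mean of 3 were *Ly6g*, at 3.48 in control and 6.45 in treated samples, and *Lyz2*, at 5.80 and 6.34. The stromal sum ranged from 10.47 to 10.55 in control and from 11.61 to 11.78 in treated samples. It was almost all *Pecam1*, the 1 stromal marker above that level, which ranged from 10.46 to 10.54 and from 11.61 to 11.78. The highest value of any other stromal marker was 1.55. The T and NK cell sum ranged from 4.68 to 4.79 and from 4.53 to 4.61. The erythroid and megakaryocyte sum ranged from 4.92 to 4.96 and from 4.72 to 4.74. *Col3a1*, *Col1a2* and *Cxcl12* among the stromal markers were listed at 0, as were 4 erythroid and megakaryocyte markers and *Ncr1* among the NK cell markers. The part of these cell types in the values below was not tested. In bulk RNA, fewer cells of a type and less RNA per cell cannot be told apart.

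With LY2090314, 24 of the 33 tested genes passed the threshold (limma, adjusted p under 0.05 with Benjamini-Hochberg adjustment over all genes). Of these, 15 were higher and 9 lower. Across all genes tested, 50.1% passed the threshold, 24.8% higher and 25.3% lower. The share among the 33 genes was 72.7%, with 45.5% higher and 27.3% lower. The same number, 24 of 33, had control and treated samples that did not overlap, against 58.6% of all genes. Their median log2 difference was 0.020, close to the median of all genes at 0.012, and the median size of the difference regardless of sign was 0.35, against 0.24 for all genes. The set therefore did not move in one direction, although its share of higher genes was above that of all genes and its share of lower genes close to it. Log2 differences ranged from -0.80 for *Pfkm* to 1.39 for *Aldoc*, and 10 of the 24 were at least 0.5 in size. Standard errors ranged from 0.044 to 0.26.

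**Figure D1:**
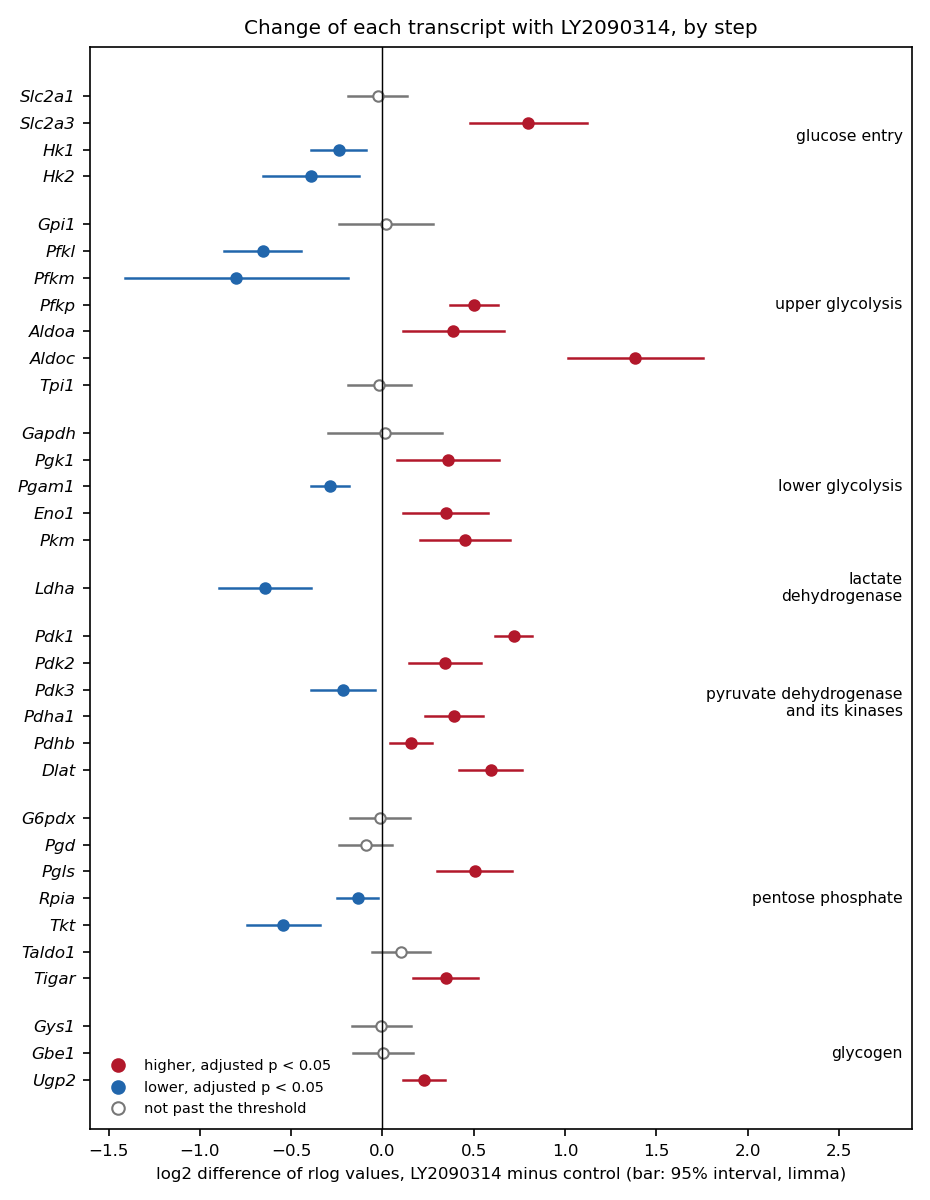
Log2 difference (treated minus control, x axis) of the 33 tested transcripts, grouped by step. Points are differences of group means (3 samples each), bars are 95% intervals from limma, and filled points passed the threshold. Rises and falls occur side by side within most steps, and *Aldoc*, at 1.39, lies farthest to the right.

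The other 4 listed genes were below the level tested, and no test was made for them. *Eno2*, the neuronal enolase, was listed at 0 in every sample, and *Hk3*, the hexokinase of myeloid cells, lay at -1.49 in control and -1.48 in treated samples. *Ldhb*, the heart-type lactate dehydrogenase, had 2.79 ± 0.080 (SD, n = 3) and 2.78 ± 0.075. *Pygl*, the liver glycogen phosphorylase, was just outside the limit, with 2.95 ± 0.028 in control and 2.97 ± 0.035 in treated samples. The lowest gene inside the limit was *Pdk2*, at 4.47 ± 0.050 and 4.82 ± 0.092.

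A common feature of the samples touched many of these genes. Control 3 lay above the mean of the other two controls in 29 of 33 genes, and treated C above the mean of A and B in 29 of 33, of which 27 were the same genes. The median excess was 0.090 in control 3 and 0.20 in treated C. Over all genes tested, the corresponding medians were 0.013 and 0.014. The share of the summed linear values taken by mitochondrially encoded transcripts was also higher in both, at 7.59% in control 3 against 6.12% and 6.13% in the other controls, and at 6.22% in treated C against 4.54% and 4.67% in A and B. Without these 2 samples, in a comparison added after the data were seen, 26 of 33 genes passed the threshold, 15 higher and 11 lower. All 24 genes called with 3 samples a group were among them. The treated group was then only A and B, which carry the same library number, so its spread may be wholly technical.

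**Figure D2:**
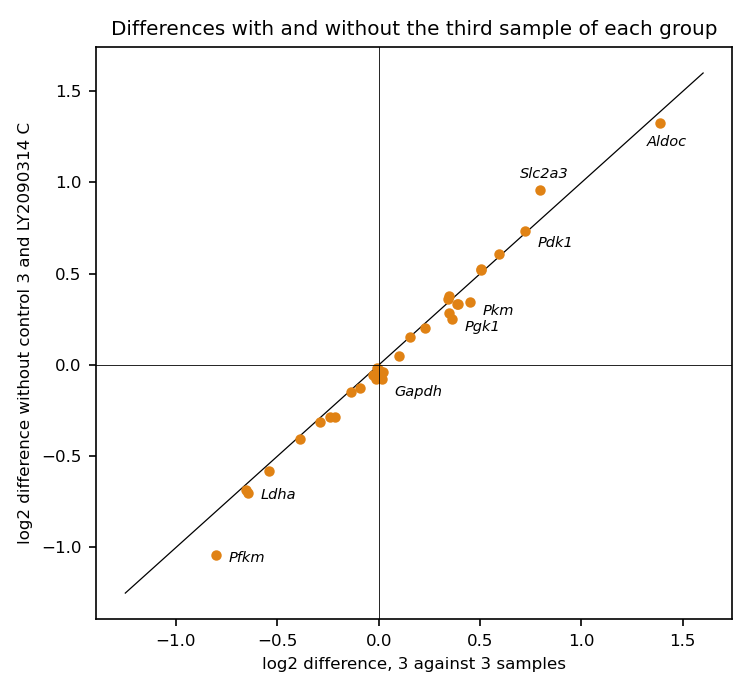
Log2 difference of each of the 33 transcripts with all 6 samples (x axis) and without control 3 and treated C (y axis). The line marks equal values. Points stay near the line, *Pfkm* moved furthest below it, and *Gapdh* changed from 0.014 to -0.077.

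Leaving out each of the 6 samples in turn kept 15 genes past the threshold in every fit, 11 higher and 4 lower. These were *Slc2a3*, *Pfkp*, *Aldoc*, *Pkm*, *Pdk1*, *Pdk2*, *Pdha1*, *Dlat*, *Pgls*, *Tigar* and *Ugp2* among the rises, and *Pfkl*, *Pgam1*, *Ldha* and *Tkt* among the falls. The other 9 lost their call in at least 1 fit. Without control 1, and likewise without control 2, the genes lost were *Hk2*, *Pfkm*, *Aldoa*, *Pgk1*, *Eno1*, *Pdk3*, *Pdhb* and *Rpia*, which left 16 genes, 11 higher and 5 lower. Without control 3, *Hk1*, *Pfkm*, *Pgk1*, *Pdk3* and *Rpia* were lost, and 5 lower genes remained. Without treated A or treated B, *Hk1*, *Pfkm*, *Pdk3* and *Rpia* were lost, in the second case together with *Pdhb*, and again 5 lower genes remained. Without treated C, *Pdhb* was lost and *Pgd* was gained, with A and B as the only treated samples. The largest adjusted p in these limma fits was 0.061 for *Hk1*, 0.073 for *Hk2*, 0.10 for *Pfkm*, 0.092 for *Aldoa*, 0.11 for *Pgk1*, 0.080 for *Eno1*, 0.14 for *Pdk3*, 0.12 for *Pdhb* and 0.15 for *Rpia*.

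Glucose entry showed opposite changes of a transporter and the hexokinases. *Slc2a3*, encoding the high-affinity glucose transporter GLUT3 (chromosome 6 of GRCm38, 122727809 to 122801640, minus strand), read 7.04, 7.36 and 7.31 in controls 1 to 3 and 8.07, 8.25 and 7.78 in treated A to C. Every treated sample was above every control, and the rise was 0.80 (standard error 0.14, adjusted p = 0.0020, limma), or 1.74-fold. *Slc2a1*, encoding GLUT1, the main glucose transporter of proliferating lymphoid cells, read 8.97, 8.80 and 8.89 against 8.81, 8.84 and 8.92. These ranges overlapped, and the difference was -0.027 (95% interval -0.19 to 0.13, adjusted p = 0.77, limma). Hexokinases trap glucose in the cell by phosphorylation. *Hk1* read 10.52, 10.51 and 10.57 in control and 10.21, 10.24 and 10.42 in treated samples, a fall of 0.24 (adjusted p = 0.017, limma). *Hk2* read 9.97, 9.89 and 9.61 in control and 9.50, 9.56 and 9.25 in treated samples. It was lower by 0.39 (adjusted p = 0.022, limma), and the lowest control, control 3, lay just above the highest treated sample, treated B.

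**Figure D3:**
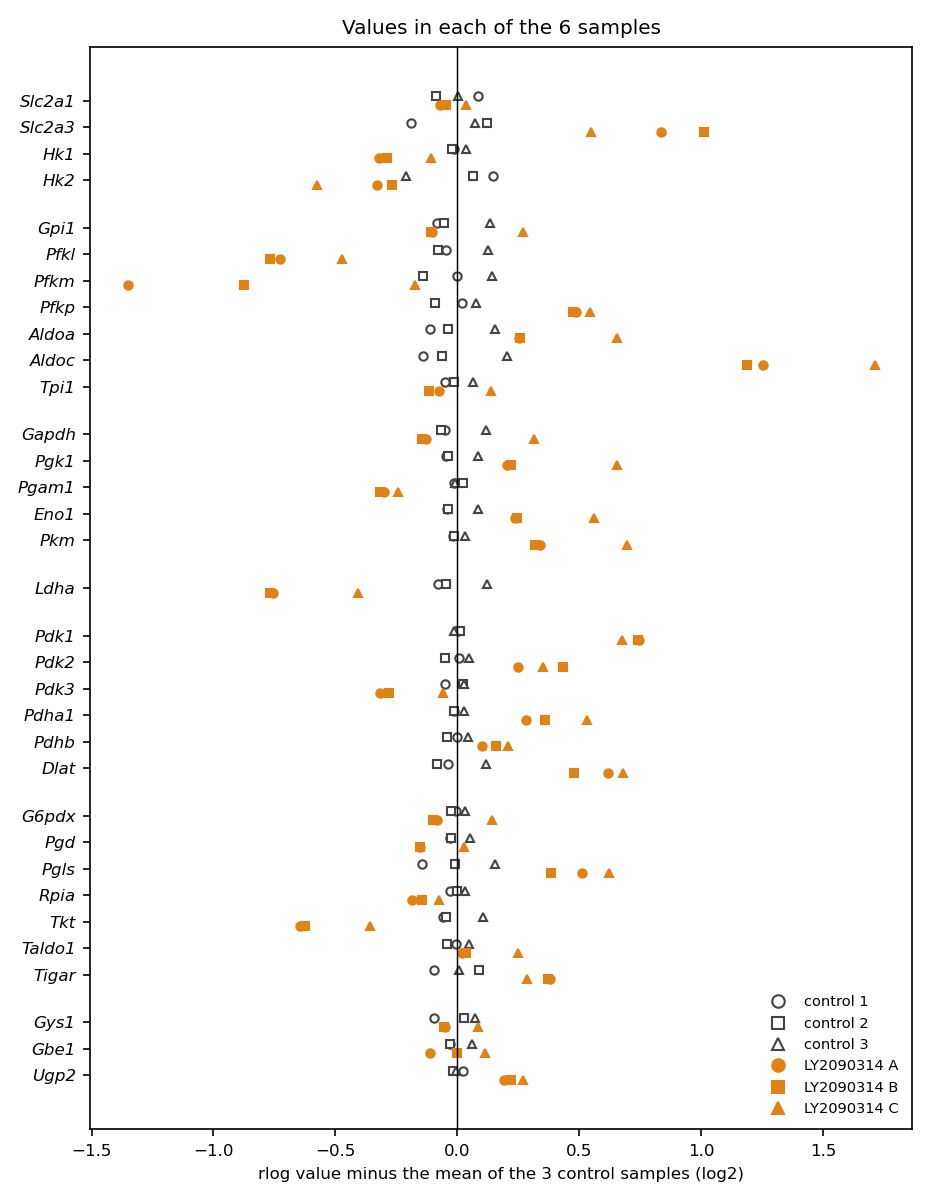
Value of each of the 33 transcripts in each sample, as the rlog value minus the mean of the 3 controls (x axis, log2). Open symbols are controls, filled symbols are LY2090314-treated samples, and triangles mark control 3 and treated C, which lie to the right of the other two samples of their group for most genes.

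At phosphofructokinase, which commits glucose to glycolysis, 2 subunits fell and 1 rose. *Pfkl*, the liver-type subunit (chromosome 10, 77986947 to 78010083, minus strand), read 10.64, 10.60 and 10.81 in control and 9.96, 9.91 and 10.21 in treated samples. It fell by 0.66 (standard error 0.091, adjusted p = 0.00066, limma), or 1.58-fold. *Pfkp*, the platelet-type subunit (chromosome 13, 6579768 to 6648777, minus strand), read 10.58, 10.47 and 10.64 in control and 11.06, 11.04 and 11.11 in treated samples. It rose by 0.50 (standard error 0.056, adjusted p = 0.00021, limma), or 1.42-fold. In both genes the groups were separated by more than the range within either group. *Pfkm*, the muscle-type subunit (chromosome 15, 98092589 to 98132451, plus strand), had the widest spread among the treated samples, with 6.13, 6.60 and 7.30 against 7.48, 7.34 and 7.62 in control. Its fall was 0.80 with a standard error of 0.26 (adjusted p = 0.035, limma). Without treated A the difference of *Pfkm* was -0.53, and without treated C it was -1.11, so its size rests on single samples. Exons of *Pfkp* share 748 bases with the oppositely oriented *Pitrm1*, which read 10.23 in control and 10.00 in treated samples (adjusted p = 0.060, limma). The library kit keeps strand, and whether the counting used it is not given in the sources used here.

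In the rest of upper glycolysis, both aldolases rose, which split the phosphorylated hexose into trioses. *Aldoc*, the brain-type aldolase (chromosome 11, 78322968 to 78327781, plus strand), read 5.23, 5.31 and 5.58 in control and 6.63, 6.56 and 7.09 in treated samples. Its rise of 1.39 (standard error 0.16, adjusted p = 0.00024, limma), or 2.61-fold, was the largest of the 33 genes. *Aldoa*, the abundant muscle-type form, read 12.76, 12.83 and 13.03 in control and 13.12, 13.13 and 13.53 in treated samples, a rise of 0.39 (adjusted p = 0.028, limma) that was 0.25 without treated C. Treated A and B thus lay only just above control 3. The isomerases on either side of these steps did not pass the threshold. *Gpi1*, which interconverts the hexose phosphates, differed by 0.020 (95% interval -0.24 to 0.28), and *Tpi1*, which interconverts the trioses, by -0.018 (-0.19 to 0.15).

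Lower glycolysis, where ATP is regained, held 3 rises, 1 fall and 1 gene that did not pass. *Pkm*, encoding the pyruvate kinase of these cells (chromosome 9, 59656368 to 59679375, plus strand), read 14.44, 14.45 and 14.49 in control and 14.80, 14.78 and 15.16 in treated samples. It rose by 0.45 (standard error 0.11, adjusted p = 0.0086, limma), or 1.37-fold. The enolase gene *Eno1* rose by 0.35, from 14.55, 14.55 and 14.67 to 14.83, 14.84 and 15.15 (adjusted p = 0.022, limma). For all 3 of *Pkm*, *Eno1* and *Pgk1*, treated C was the highest sample and stood apart from A and B. *Pgk1*, encoding phosphoglycerate kinase, read 13.48, 13.49 and 13.61 in control and 13.73, 13.74 and 14.18 in treated samples. It was higher by 0.36 (adjusted p = 0.038, limma), by 0.21 without treated C, and at adjusted p = 0.059 when each sample was centred on its median. *Pgam1*, encoding phosphoglycerate mutase, moved the other way: it read 12.237, 12.271 and 12.238 in control and 11.948, 11.930 and 12.005 in treated samples, a fall of 0.29 (standard error 0.044, adjusted p = 0.0011, limma). *Gapdh*, which oxidises the trioses and is widely used as a reference transcript, read 15.49, 15.47 and 15.66 in control and 15.41, 15.40 and 15.86 in treated samples. Its difference was 0.014 (95% interval -0.30 to 0.33, adjusted p = 0.94, limma). Without control 3 and treated C it was -0.077 (adjusted p = 0.045, limma). The only treated samples in that fit were A and B, which carry the same library number. A retrotransposed copy of enolase, *Eno1b*, was at 8.38 in control and 8.60 in treated samples (adjusted p = 0.29), and reads of near-identical copies may be divided between the loci. The other annotated copies of these enzymes that were searched by name and present in the data had means under 3.

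*Ldha*, encoding the lactate dehydrogenase subunit that favours lactate formation (chromosome 7, 46841475 to 46855627, plus strand), was among the clearest falls. It read 14.333, 14.366 and 14.535 in control and 13.657, 13.645 and 14.002 in treated samples. The fall was 0.64 (standard error 0.11, 95% interval of the difference -0.89 to -0.39, adjusted p = 0.0017, limma), or 1.56-fold. Every treated sample was below every control, and leaving out any one sample gave a fall between 0.58 and 0.76. *Pkm*, 1 step upstream, and *Ldha* therefore moved in opposite directions in the same samples.

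All 6 genes of pyruvate dehydrogenase and its kinases passed the threshold, 5 higher and 1 lower. *Pdk1*, a kinase that switches the complex off (chromosome 2, 71873224 to 71903858, plus strand), read 11.55, 11.55 and 11.53 in control and 12.29, 12.29 and 12.22 in treated samples. With a rise of 0.72 and the smallest standard error of the 33 genes, 0.044, it had the smallest adjusted p of the set (7.55e-06, limma). The groups were far apart relative to the spread within either of them. *Pdk2*, at a much lower level, read 4.48, 4.42 and 4.52 in control and 4.72, 4.90 and 4.82 in treated samples, a rise of 0.34 (adjusted p = 0.012, limma) that did not pass after quantile normalization. *Pdk3* fell by 0.22, from 10.02, 10.09 and 10.10 to 9.75, 9.79 and 10.01 (adjusted p = 0.043, limma). In *Pdk3*, treated C lay just below control 1, and A and B further below. The 3 listed subunits of the complex itself rose as well. *Pdha1*, the phosphorylated E1 alpha subunit (X chromosome, 160122209 to 160138413, minus strand), read 12.13, 12.13 and 12.17 in control and 12.42, 12.50 and 12.67 in treated samples, a rise of 0.39 (standard error 0.068, adjusted p = 0.0021, limma). *Dlat*, the E2 acetyltransferase (chromosome 9, 50634633 to 50659780, minus strand), read 10.08, 10.04 and 10.24 in control and 10.74, 10.60 and 10.80 in treated samples. Its rise of 0.59 (standard error 0.074, adjusted p = 0.00036, limma) was the larger of the pair. *Pdhb*, the E1 beta subunit, was higher by 0.16 (adjusted p = 0.033, limma), and this call was also lost on median centring. Among the subunits of the complex outside the list, *Dld*, the E3 dehydrogenase, was lower, at 11.192, 11.269 and 11.300 in control and 11.001, 11.078 and 11.089 in treated samples (difference -0.20, adjusted p = 0.013, limma). *Pdhx*, the E3-binding subunit, had overlapping groups and a difference of 0.087 (adjusted p = 0.52, limma). Both were named after their values were seen.

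In the pentose phosphate pathway, the first oxidative enzyme did not pass the threshold, and the changes lay further along. *G6pdx*, encoding the glucose-6-phosphate dehydrogenase that sets the flow into the pathway, read between 10.34 and 10.40 in control and between 10.26 and 10.51 in treated samples, a difference of -0.013 (95% interval -0.18 to 0.15). Its exons share 418 bases with the oppositely oriented *Ikbkg*, which rose from 9.74 to 10.08 (adjusted p = 0.00080, limma). *Pgd*, the second NADPH-forming dehydrogenase, differed by -0.093 (-0.24 to 0.050, adjusted p = 0.24, limma). It passed only without treated C or without both control 3 and treated C. In these fits the treated group was A and B alone, which carry the same library number. *Taldo1*, the transaldolase, differed by 0.10 (-0.059 to 0.26). *Tkt*, the transketolase of the branch that returns pentoses to glycolysis (chromosome 14, 30548359 to 30574720, plus strand), had the largest fall of the pathway. It read 11.91, 11.92 and 12.07 in control and 11.33, 11.34 and 11.61 in treated samples, a fall of 0.54 (standard error 0.086, adjusted p = 0.0013, limma). *Rpia*, which makes ribose-5-phosphate, was lower by 0.14 (adjusted p = 0.047, limma), a call lost after quantile normalization. *Tigar*, a phosphatase that diverts hexose phosphates from glycolysis towards this pathway, read 7.95, 8.13 and 8.05 in control and 8.42, 8.42 and 8.33 in treated samples, and rose by 0.35 (adjusted p = 0.0066, limma). *Pgls*, the lactonase between the oxidative steps, read 11.63, 11.77 and 11.93 in control and 12.29, 12.16 and 12.40 in treated samples, a rise of 0.50 (adjusted p = 0.0022, limma). Exons of *Pgls* share 776 bases on the same strand with *Fam129c*, which rose from 8.61 to 10.44 (adjusted p = 4.51e-07, limma), so the value of *Pgls* is uncertain, and the part of shared reads in it was not tested.

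For glycogen, the substrate after which GSK3 is named did not pass the threshold. *Gys1*, the muscle-type glycogen synthase, read 9.25, 9.37 and 9.42 in control and 9.29, 9.29 and 9.43 in treated samples, a difference of -0.0074 (95% interval -0.17 to 0.15, adjusted p = 0.94, limma). Its exons share 310 bases with the oppositely oriented *Ruvbl2*, which fell by 0.65. *Gbe1*, the branching enzyme, differed by 0.0010 (-0.16 to 0.17). *Ugp2*, which forms the UDP-glucose that glycogen synthase uses (chromosome 11, 21321138 to 21371201, minus strand), read 9.56, 9.52 and 9.52 in control and 9.72, 9.75 and 9.80 in treated samples. It rose by 0.23 (standard error 0.050, adjusted p = 0.0068, limma), or 1.17-fold, with no overlap between groups.

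Ratios between isozymes of one reaction, taken within each sample, separated the groups for 6 of 7 pairs for which both genes were tested. For *Pfkl* with *Pfkp*, *Pfkm* with *Pfkp* and *Pdk3* with *Pdk1*, this had to follow from the single genes, which moved in opposite directions without overlap. The share of separated ratios among other gene pairs was not computed. An exact two-sided permutation test of 3 against 3 samples cannot give p below 0.10, which is the value of all 6 (0.12 after Benjamini-Hochberg adjustment over 7 pairs), so none could pass 0.05. The log2 ratio of *Pfkl* to *Pfkp* was 0.05, 0.13 and 0.16 in control and -1.10, -1.13 and -0.90 in treated samples, a change of -1.16. Per kilobase of the principal transcript, *Pfkl* made up 54.6% of the sum of the *Pfkl* and *Pfkp* levels in control and 35.0% in treated samples. *Pfkp* thus replaced *Pfkl* as the higher of these subunit transcripts per length. *Pfkm* relative to *Pfkp* changed by -1.30, *Pdk3* relative to *Pdk1* by -0.94 and *Pdk2* relative to *Pdk1* by -0.38. *Pdk3* fell from 46.9% to 31.5% of the *Pdk1* and *Pdk3* sum per kilobase. *Slc2a3* relative to *Slc2a1* changed by 0.82, from 20.8% to 31.8% of their sum per kilobase, and *Aldoc* relative to *Aldoa* by 1.00, from 0.30% to 0.59%. *Aldoc* therefore stayed a minor aldolase transcript. For *Hk2* relative to *Hk1* the groups overlapped (change of -0.15, exact permutation p = 0.50, n = 3 per group).

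**Figure D4:**
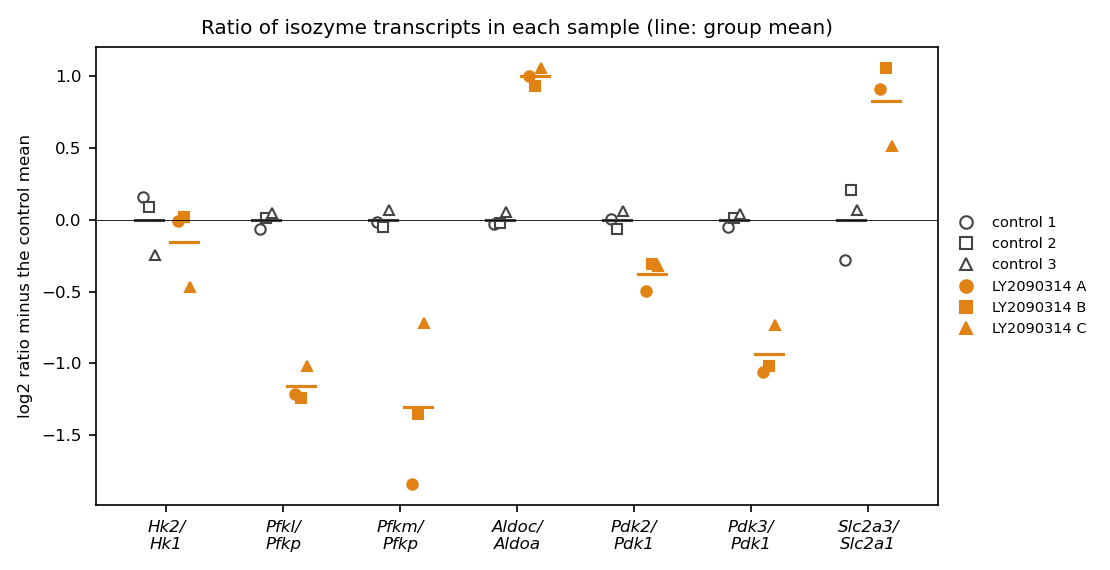
Log2 ratio of the rlog values of 7 isozyme pairs in each sample, minus the mean ratio of the 3 controls (y axis). Symbols mark single samples and lines the group means. Groups are apart for 6 pairs and overlap for *Hk2* and *Hk1*.

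On the scale of log2 level per kilobase of principal transcript, *Gapdh* was the highest of the 33 genes in both groups, at 15.04 ± 0.10 (SD, n = 3) in control and 15.05 ± 0.26 in treated samples. In control it was followed by *Ldha* (13.59 ± 0.11), *Eno1* (13.57 ± 0.072), *Pkm* (13.18 ± 0.027) and *Pgk1* (12.66 ± 0.074). *Ldha* and *Eno1* did not differ beyond their spread there. With LY2090314 the order was *Eno1* (13.92 ± 0.18), *Pkm* (13.63 ± 0.21), *Pgk1* (13.02 ± 0.26) and *Ldha* (12.95 ± 0.20), so *Ldha* passed from rank 2 to rank 5. The means of *Pgk1* and *Ldha* differed by less than their SDs, but *Pgk1* was slightly above *Ldha* within each treated sample. The 33 genes together took 1.02% ± 0.033 of the summed linear values of all genes tested in control and 1.11% ± 0.097 in treated samples (exact permutation p = 0.20). Lower glycolysis went from 0.59% to 0.69%, with treated C at 0.77%. The share of *Ldha* went from 0.12% to 0.074%, and that of pyruvate dehydrogenase and its kinases from 0.058% to 0.079%. These 3 shares did not overlap between groups (exact permutation p = 0.10, the smallest possible). The same held for glucose entry, from 0.0159% to 0.0142%, and glycogen, from 0.0109% to 0.0115%. It did not hold for upper glycolysis (exact permutation p = 0.30) or the pentose phosphate pathway (p = 0.70). Without mitochondrially encoded transcripts in the total, the 33 genes took 1.09% in control and 1.17% in treated samples (exact permutation p = 0.40). Shares give most weight to abundant transcripts.

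The promoters were searched for CACGTG, the E-box sequence that Myc binds together with Max, because *Myc* itself was read at 11.84, 11.77 and 11.76 in control and at 9.15, 9.17 and 9.13 in treated samples, a fall of 2.64 (adjusted p = 1.92e-08, limma). RefSeq promoter windows of 250 bases before to 50 bases after the start site (GRCm38.p6) were on hand for 32 of the 33 genes, with none for *Slc2a3*. The palindrome CACGTG, which reads alike on both strands, occurred in 3 of 47 windows of these genes (6.38%) and in 7.15% of all 32851 windows. The genes were *Ldha* and *Pfkm*, which were lower with LY2090314, and *Pdk2*, which was higher. These stretches are printed below because they are the only E-boxes of this form in the windows. Each is in the direction of the gene, from 30 bases before the first to 30 bases after the last motif, with the motif in capitals. *Ldha* has 2 motifs, 145 and 48 bases before the RefSeq start site, in a stretch that lies in an intron of a longer annotated *Ldha* transcript. In *Pfkm* the motif is 136 bases and in *Pdk2* 126 bases before the start site, and the *Pfkm* stretch is also intronic to the oppositely oriented *Senp1*.
Ldha, chr7:46845629-46845791, plus strand: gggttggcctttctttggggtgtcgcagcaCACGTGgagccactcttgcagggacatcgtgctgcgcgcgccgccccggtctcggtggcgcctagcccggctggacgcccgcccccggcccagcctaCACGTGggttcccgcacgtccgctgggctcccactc
Pfkm, chr15:98092423-98092488, plus strand: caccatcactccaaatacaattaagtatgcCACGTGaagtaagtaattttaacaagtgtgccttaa
Pdk2, chr11:95041462-95041527, minus strand: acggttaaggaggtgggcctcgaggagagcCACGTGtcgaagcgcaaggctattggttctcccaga
The shorter ACGTG, the core of the hypoxia response element and also contained in CACGTG, was found on either strand in 18 of 47 windows (38.3%), from 16 genes, and in 19.6% of all windows. Those 16 genes were 7 of the 14 higher genes with windows (*Aldoa*, *Aldoc*, *Pdhb*, *Pdk2*, *Pgk1*, *Pkm* and *Ugp2*) and 6 of the 9 lower ones (*Hk1*, *Hk2*, *Ldha*, *Pdk3*, *Pfkm* and *Pgam1*). The other 3 were among the 9 that did not pass the threshold (*G6pdx*, *Gapdh* and *Slc2a1*). By window, the shares were 34.8%, 50% and 30%. A match describes these letters only and does not show binding.

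Transcription factors and other regulators tied to glucose genes were also measured. Of 18 tested, 7 were higher and 4 lower, or 61.1% called. The share called was 62.5% for the HIF targets and 55.6% for the NRF2 targets below. Over all genes tested it was 50.1%, with 24.8% higher and 25.3% lower. *Epas1*, encoding HIF-2 alpha, rose by 1.42, *Txnip*, a glucose-induced brake on glucose uptake, by 0.48, and *Srebf1* by 0.35. Besides *Myc*, *Ppargc1b* fell by 1.04 and *Mycn* by 0.63. *Hif1a* had overlapping groups and a difference of -0.0074 (adjusted p = 0.93, limma). Of 16 HIF targets outside glycolysis, 4 were higher and 6 lower, with *Ddit4* rising by 1.18 and *Egln3* by 0.52, whereas *Mxi1* fell by 1.21, *Bnip3* by 0.59 and *Ndrg1* by 0.58. Of 9 NRF2 targets outside the pentose phosphate pathway, 5 were higher and 0 lower (limma; 0 lower at an unadjusted p under 0.05 too), with the ferritin chains *Ftl1* and *Fth1* rising by 0.96 and 0.56 and *Hmox1* by 0.49.

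Neighbouring enzymes showed both directions as well. The share called was 54.8% for other glucose and glycogen enzymes, 47.6% for citrate cycle genes and 41.7% for GSK3 and glycogen synthase regulators. Over all genes tested it was 50.1%, with 24.8% higher and 25.3% lower. Of 42 other enzymes of glucose and glycogen metabolism, 8 were higher and 15 lower, with a median log2 difference of -0.087. The largest rise was that of *Bpgm*, which makes the bisphosphoglycerate that regulates haemoglobin in red cells, from 8.01, 7.86 and 8.01 in control to 9.88, 9.87 and 9.62 in treated samples, or 1.83. The gluconeogenic *Fbp1* rose by 1.28 and *Pfkfb3*, whose product activates phosphofructokinase, by 0.88. *Phka1*, a regulatory subunit of phosphorylase kinase, fell by 1.76, the mitochondrial *Pck2* fell by 1.12 and the transporter *Slc2a9* fell by 1.08. The phosphatase that reverses the action of the pyruvate dehydrogenase kinases was singled out after its values were seen. Its catalytic subunit *Pdp1* fell by 0.57 and its regulatory subunit *Pdpr* fell by 0.52. Its other catalytic subunit, *Pdp2*, at 10.31 in control and 10.21 in treated samples, did not pass the threshold (difference -0.10, adjusted p = 0.13, limma). Of 21 genes listed under the citrate cycle, not all of them mitochondrial, 1 was higher and 9 were lower, with a median of -0.11. The 1 rise, of 0.36, was that of *Idh1*, the cytosolic isocitrate dehydrogenase, which is not part of the mitochondrial cycle. *Suclg2* fell by 0.82, *Idh2* by 0.73 and *Sdhb* by 0.57. Of 12 GSK3 and glycogen synthase regulators, 0 were higher and 5 lower (limma; 1 higher at an unadjusted p under 0.05), among them *Ppp1cb*, a phosphatase catalytic subunit, by 0.54, *Prkaa2* by 0.43 and *Ppp1ca* by 0.29. The kinases that the compound inhibits, *Gsk3a* and *Gsk3b*, differed by 0.085 (adjusted p = 0.20, limma) and 0.13 (adjusted p = 0.051, limma).

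**Figure D5:**
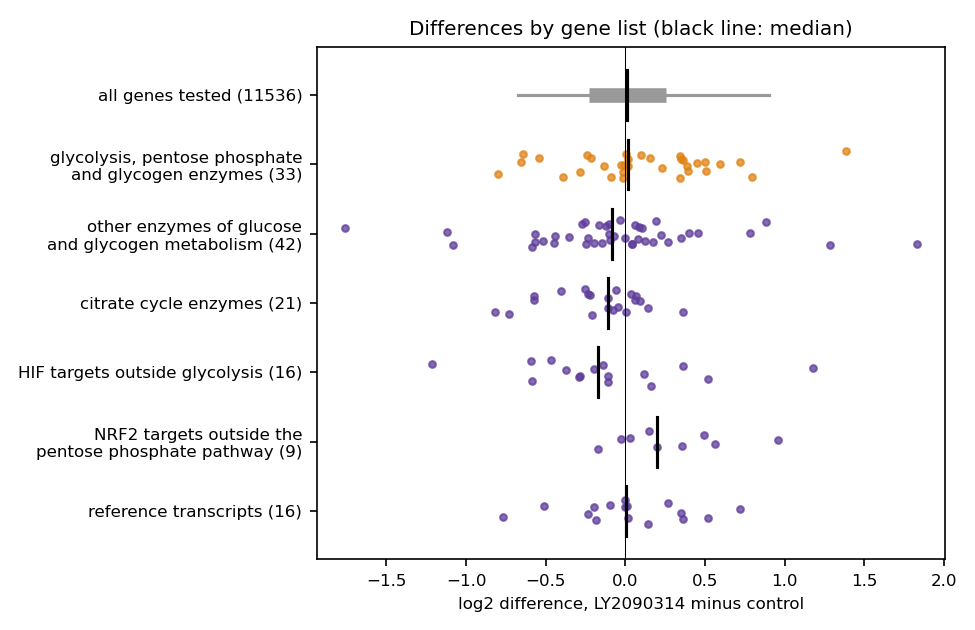
Log2 difference (x axis) of single genes in 6 lists and, for all 11536 genes, the range from the 25th to the 75th percentile (box) and from the 5th to the 95th (line). Black lines are medians, which lie between -0.17 for HIF targets and 0.20 for NRF2 targets, and the number of genes tested stands in parentheses.

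Of 16 transcripts in common use as references for expression, 4 were higher and 4 lower with LY2090314, with a median of 0.0030. The share called was 50%, against 50.1% of all genes tested. *Hprt* fell by 0.77, whereas *B2m* rose by 0.72 and *Tfrc* by 0.52. For *Tfrc* the groups overlapped, with 13.56, 13.41 and 13.21 in control and 14.15, 14.11 and 13.47 in treated samples (adjusted p = 0.044, limma). The glycolytic members of that list, *Gapdh* and *Pgk1*, thus differed by less than *Hprt* or *B2m* between the groups. Of 9 mitochondrially encoded transcripts 2 were lower (22.2%, against 25.3% of all genes tested), with a median of -0.39.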

How the data were processed

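Poly(A) RNA of 12 samples was sequenced as stranded paired-end libraries. The authors' pipeline used STAR for alignment (GRCm38, GENCODE vM24) and Salmon for quantification, and the submitters' processing notes also name DESeq2 (1.30.1), FastQC (0.11.9), SAMtools (1.7) and Picard (2.23.8). They deposited 1 table of log2 (rlog) values for 41444 genes and 12 columns. Which samples entered the transformation is not stated. Without counts, depth is unknown, and no count test or counting interval could be given. By name, 3 columns were matched to ERT2 controls and 3 to treated ERT2 cells. A further 6 columns were left out: all carry Cre and LY in the name, spelled in 2 ways, so that untreated Cre-ERT2 cells could not be told from treated ones. The fit was made over these 6 columns.

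Genes with a mean of at least 3 over the 6 samples entered a linear model in R 4.3.3 with limma 3.58.1 (eBayes with a mean-variance trend, Benjamini-Hochberg adjustment over all 11536 genes, threshold 0.05). Exact permutation tests used scipy 1.17.1. The script was tested on simulated data. Linear values are 2 to the power of the rlog value. Symbols and positions of 41157 identifiers came from GENCODE vM21 of the same build, and promoters from RefSeq. The gene list and all other lists were chosen with earlier results of these data known. Any listed gene may be named. From every other list at most the 3 largest called rises and falls are named, plus *Myc*, *Hif1a*, *Txnip*, *Gsk3a* and *Gsk3b*, apart from genes stated to be singled out later, overlapping or duplicated neighbours and markers listed at 0. One gene that this rule names is not reported here.

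Alternatives were a fit without the trend, no minimum mean, a minimum of 5, median centring, quantile normalization, leaving out each sample, averaging treated A and B, a threshold of 0.01 and a log2 difference of at least 1. Leaving out control 3 and treated C together was added after the data were seen.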

Additional observations from a re-analysis of the deposited data

How the results depend on the processing

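No paired analysis was possible because no replicate number of the titles can be read from the columns. Of the 33 genes, 24 passed the threshold (15 higher, 9 lower) and 5778 of all genes did. With a log2 difference of at least 1 also required, 693 genes and 1 of the 33 (*Aldoc*) passed, 1 higher and 0 lower. At a threshold of 0.01, 14 of the 33 passed, of which 4 were lower. Without a minimum mean, 17 of the 33 passed, 12 higher and 5 lower. The genes lost were *Hk2*, *Pfkm*, *Aldoa*, *Pgk1*, *Eno1*, *Pdk3* and *Rpia*. With treated A and B averaged, 19 of the 33 passed, 14 higher and 5 lower. In that fit *Hk1*, *Pfkm*, *Pdk3*, *Pdhb* and *Rpia* were lost. Leaving out single samples gave 4741 to 6225 genes in all and 16 to 24 of the 33, with 11 to 15 higher, 5 to 10 lower and a median log2 difference from -0.054 to 0.093. Without both control 3 and treated C, 6398 genes and 26 of the 33 passed, and *Gapdh* was at -0.077. Here, as in the fit without treated C (6225 genes), A and B were the only treated samples. They carry the same library number, so the treated spread in these fits may be wholly technical. After quantile normalization 43.4% of all calls were higher, against 49.5% in the fit reported. The cause of these changes was not tested. Over all single genes and alternatives, 378 values kept direction and side of the threshold, 84 lost the call, 2 gained it, 29 changed sign without passing the threshold, and 1 (*Gapdh*, above) changed sign and passed. The 7 genes that changed sign anywhere (*Slc2a1*, *Gpi1*, *Tpi1*, *Gapdh*, *G6pdx*, *Gys1* and *Gbe1*) were not among the 24 called.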
